A study of Mus musculus with 33 samples.

Results

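The regions described here are places in the mouse genome where at least 2 of DLX1, DLX2 and DLX5, a family of homeodomain transcription factors, had a ChIP-seq peak in e16.5 ganglionic eminences, and where none of the 3 had a peak at e11.5 or e13.5. Members were chosen by measured values, the called DLX peaks of the 3 stages. They were found by merging overlapping peaks of the 3 e16.5 lists on chromosomes 1 to 19 and X, and by keeping merged regions with peaks of at least 2 factors and no overlap, by even 1 bp, with a peak of the 6 earlier lists. Of 42503 merged e16.5 regions, 7137 (16.8%) met this rule. They made up 33.8% of the 21096 regions bound by at least 2 factors at e16.5. The question was which of 4 histone marks the e13.5 chromatin already carried at these places, before a DLX peak was listed there.

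Ganglionic eminences are swellings in the floor of the embryonic forebrain, where the projection neurons of the striatum and many GABAergic interneurons are born. DLX proteins are expressed in developing cells of the eminences and are needed for their differentiation and migration. Of the marks measured, H3K4me1 is found at enhancers and beside promoters, H3K27ac at active enhancers and promoters, H3K4me3 at promoters, and H3K27me3 is laid down by the Polycomb complex PRC2 at silenced developmental genes. An H3 tail cannot carry acetylation and methylation on the same lysine 27 at once.

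All DLX ChIP samples came from wild-type CD1 mice, 1 library for each factor and each of the stages e11.5, e13.5, e16.5, with rabbit antibodies made in the laboratory and sonicated, formaldehyde-fixed chromatin. The 4 histone marks were mapped at e13.5 only, in wild-type and in Dlx1/2-/- (Dlx1/2 knockout) CD1 embryos, on native chromatin cut with micrococcal nuclease, 1 library for each mark and genotype. The tissue was the basal ganglia, meaning the lateral, medial and caudal eminences together with their mantle zones. The protocol text names only e13.5 for the dissection of the DLX samples, and the ages given here are those of the stage labels. With 1 library per condition no comparison below has a replicate check or a test, and each 95% interval is an exact binomial (Clopper-Pearson) interval that covers counting error only. In bulk tissue, fewer cells with a mark and less of the mark per cell cannot be told apart.

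These files do not show how deeply the ChIP libraries were sequenced, and a peak list grows with depth. The e16.5 lists held 16817 peaks of DLX1, 32610 of DLX2 and 27370 of DLX5, against 8459, 17126 and 2951 at e13.5 and 4337, 8341 and 11361 at e11.5. Absence from an earlier list is therefore absence of a called peak, and the part of list length in it was not tested. The tissue label was checked on e13.5 RNA counts of 4 wild-type and 4 knockout embryos, with 14.4 M to 117 M counts per library. Gad2, the gene of a GABA-synthesising enzyme, stood at 151 to 165 CPM (the count scaled to a common library total) in wild type and 52.2 to 60.1 CPM in knockout. Dlx1 stood at 117 to 129 CPM in wild type and 21.3 to 26.3 in knockout, and Dlx2 at 15.3 to 28.8 and 1.01 to 1.52 CPM. All 4 cortical genes checked (Neurod6, Neurod2, Tbr1 and Emx1) were above 0 in every library, with a summed level of 342 to 422 CPM in wild type and 377 to 509.6 CPM in knockout. The blood genes Hbb-y and Hba-x summed to 1644 to 1886 CPM in wild type and 1391 to 2029.7 CPM in knockout. The genes checked for vessels, hypothalamus and microglia were also above 0 in every library, at lower summed levels than the cortical genes. Some signal of cortical, blood or other cells in the chromatin can therefore not be told apart from signal of the eminences.

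DLX2 and DLX5 were the most common partners at the new regions. Of the 7137 members, 3564 (49.9%) had DLX2 and DLX5 without DLX1, 2347 (32.9%) had all 3 factors, 646 (9.05%) had DLX1 and DLX2, and 580 (8.13%) had DLX1 and DLX5. Among the 13959 multi-factor regions that did overlap an earlier peak, called regions seen earlier below, 9252 (66.3%) had all 3. DLX2 and DLX5 without DLX1 were found at 3241 (23.2%) of them. Of the e16.5 lists, that of DLX1 was the shortest, and the part of list length in these shares was not tested. Merging overlapping peaks keeps the factors' summits near each other, so their distances are a description. The median distance within a member was 32 bp between DLX1 and DLX2, 35 bp between DLX1 and DLX5 and 30 bp between DLX2 and DLX5, and 82.1% to 86.6% of the pairs lay within 100 bp. Regions seen earlier had medians of 28.5 to 32 bp, with 80.6% to 83.9% within 100 bp.

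The e16.5 DLX peaks chose the members, so their strength is given as a description. Fold here is the authors' fold enrichment over input of a peak, and q its false discovery rate. Members had a median highest fold of 4.96 (middle 50% 4.24 to 6.19) and a highest value of 20, against a median of 7.16 for regions seen earlier and 3.99 for the 15338 new regions with 1 factor. Member width was 353 bp in the median, against 510 bp for regions seen earlier and 245 bp for the 1-factor regions. Sorted into quartiles by their strongest −log10 q, 54.3% of the weakest multi-factor regions (−log10 q up to 8.45) were new, followed by 47.0%, 29.8% and, in the strongest quartile (from 30.7), 5.65%. The strongest quartile held 299 members and the weakest 2793.

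Most members lay at least 1 kb from an earlier called DLX peak. The rule had removed regions that overlap one, and no background distance was set beside these values. The median distance to the nearest earlier DLX peak was 27.1 kb (middle 50% 8.98 to 66.2 kb), with a maximum of 1.70 Mb. Only 554 members (7.76%) lay within 1 kb of an earlier peak, and 322 (4.51%) lay 200 kb or more away. At the edge of the rule, 66 members were less than 100 bp from an earlier peak, and 111 regions were left out for an overlap of less than 100 bp. The member closest to an earlier peak, chr13:96095499-96096104 (mm9, as all coordinates here), abutted it with no base between, and the member at chr6:124959385-124959717 was 1 bp away. Just outside the rule, chr2:69560677-69561162 overlapped an earlier peak by 2 bp. These 3 regions were alike in having modest DLX folds, from 3.0 to 4.17, together with H3K27ac, H3K4me3 and H3K27me3.

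At e13.5, 5336 of 7137 members (74.8%, interval 73.7 to 75.8%) already carried at least 1 of the 4 marks in wild-type tissue. A region counted as carrying a mark when it overlapped a broad peak with a −log10 q of at least 2. H3K4me1 was the most frequent, at 4926 members (69.0%, 67.9 to 70.1%). H3K4me3 followed at 3252 (45.6%, 44.4 to 46.7%), H3K27ac at 2518 (35.3%, 34.2 to 36.4%) and H3K27me3 at 1591 (22.3%, 21.3 to 23.3%). For scale, wild-type peaks of these marks cover 10.7%, 3.73%, 4.28% and 4.08% of the chromosomes. These are shares of bases, while a member counted with 1 bp of overlap, so the measures differ. Member shares at the summit, given below, are the closer measure. None of the 4 was found at 1801 members (25.2%, 24.2 to 26.3%), and 528 members (7.40%) touched no deposited broad peak of any q.

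Regions seen earlier carried each mark more often, and the intervals did not overlap. Their shares were 84.2% for H3K4me1, 70.6% for H3K4me3, 59.3% for H3K27ac and 40.6% for H3K27me3, and 6.71% had no mark. New regions with 1 factor were nearer to the members, with 66.1%, 40%, 30.0% and 21.8%, and 29.2% without a mark. Of these, the H3K27me3 interval (21.1 to 22.4%) overlapped that of the members. Region width moved with these shares: from the narrowest to the widest quartile of members, H3K4me1 went from 59.8% to 75.5% and H3K27ac from 21.7% to 47.8%, and the part of width in the differences between sets was not tested.

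**Figure D1:**
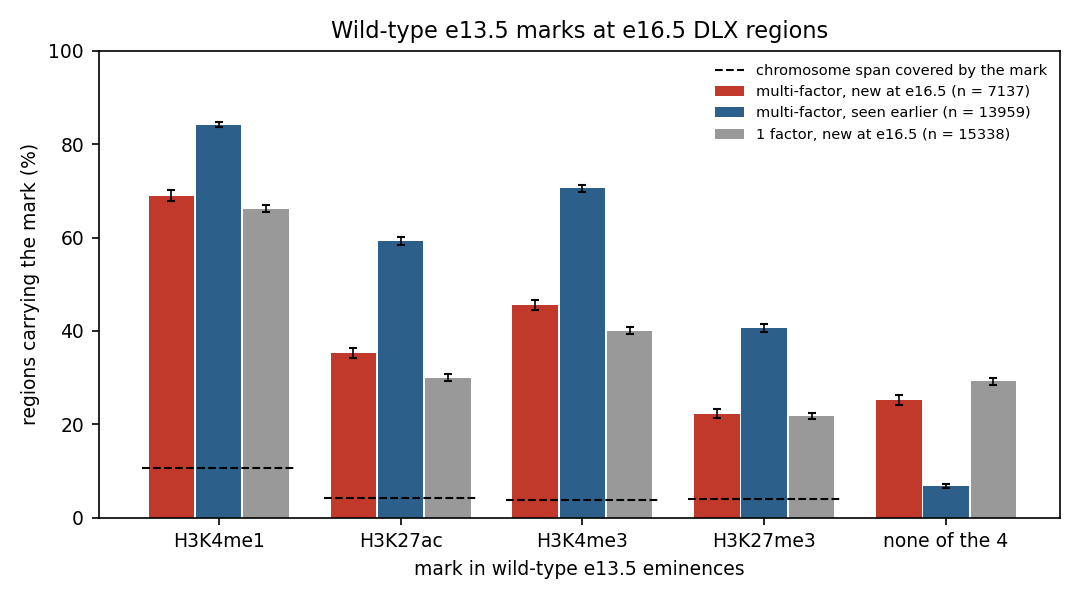
Share of regions (%) that carry each wild-type e13.5 mark, for the 7137 members, the 13959 multi-factor regions seen earlier and the 15338 new 1-factor regions. Bars are shares of regions with at least 1 bp of overlap, and error bars are 95% exact binomial intervals for counting error. Dashed lines give the share of chromosome bases under peaks of the mark, which is an unlike measure. Members stand between 22.3% (H3K27me3) and 69.0% (H3K4me1), above each dashed line.

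The marks were centred on the later DLX summits. In wild type, 64.9% of member summits lay under an H3K4me1 peak, against a mean of 19.3% at points 5 kb to either side. For H3K4me3 the share was 43.7% at the summit and 7.36% at 5 kb, for H3K27ac 34.0% and 10.6%, and for H3K27me3 17.3% and 6.26%. H3K4me3 had the steepest fall, 5.95-fold, and H3K27me3 the shallowest, 2.76-fold. Regions seen earlier had higher shares both at the summit and 5 kb away (77.4% and 29.9% for H3K4me1), so the ratio for that mark was 3.37 at members and 2.59 at regions seen earlier.

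**Figure D2:**
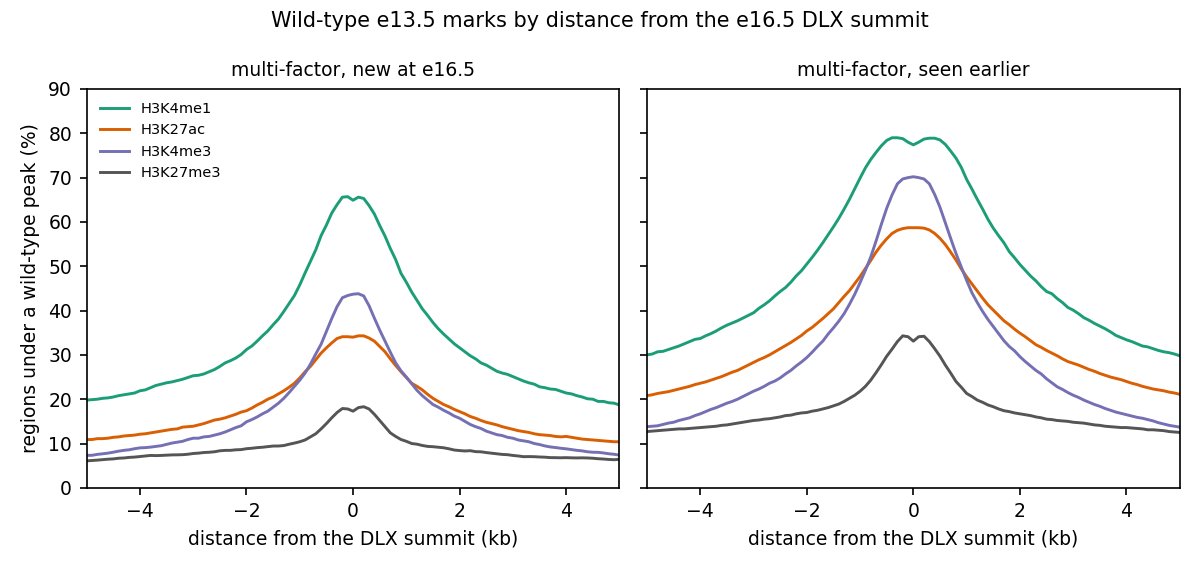
Share of regions (%) under a wild-type e13.5 peak of each mark, by distance (kb) from the summit of the strongest e16.5 DLX peak, for members (left) and multi-factor regions seen earlier (right). Lines are shares over all regions of a set; at members each mark is highest within 200 bp of the summit, and H3K4me1 goes from 64.9% there to a mean of 19.3% at 5 kb.

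The combinations fell into a few large groups. H3K4me1 alone was found at 1784 members (25%), nearly as many as had no mark. All 4 marks were found at 1117 (15.7%), H3K4me1 with H3K27ac and H3K4me3 at 858 (12.0%), and H3K4me1 with H3K4me3 at 773 (10.8%). H3K4me1 with H3K27ac is the pair usually taken for an active enhancer. Without H3K4me3 and H3K27me3 it was found at 205 members (2.87%), close to the 2.89% of regions seen earlier. Counted with or without H3K4me3, and still without H3K27me3, the pair was found at 1063 members (14.9%, 14.1 to 15.7%). This was less common than at regions seen earlier, where it stood at 23.5% (22.8 to 24.2%). H3K4me1 alone was more common at members than at regions seen earlier, where it stood at 18.2%, while all 4 marks were less common than the 27.4% there.

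H3K4me3 divided the members into parts with unlike chromatin. Of the 3252 members with H3K4me3, 88.7% also had H3K4me1, 70.1% H3K27ac and 46.7% H3K27me3. At 1574 members (22.1%) the H3K4me3 peak reached at least 10-fold over input, and 1495 of these had H3K27ac. Of the 3885 members without H3K4me3, 52.6% had H3K4me1, 6.10% had H3K27ac, 1.83% had H3K27me3 and 46.4% had none of the 4. Regions seen earlier without H3K4me3 had more H3K4me1 (75.8%) and H3K27ac (10.3%), and 22.8% of them had no mark. Gene models of mm9 were not used here, so how many of the H3K4me3 members are promoters of known genes is not given.

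H3K27me3 at members came almost always with H3K4me3, and mostly with H3K27ac. Of the 1591 members with H3K27me3, 1520 (95.5%) had H3K4me3 and 1389 (87.3%) had H3K27ac, while 17 had H3K27me3 without the other 3 marks. Regions seen earlier with H3K27me3 were alike, with H3K4me3 at 96.3% and H3K27ac at 87.4%. The H3K27me3 peaks were of unlike size. Where H3K27ac was also called, the H3K27me3 peak was 1212 bp wide in the median and the H3K4me3 peak stood at 12.8-fold. At the 202 members with H3K27me3 and no H3K27ac, the H3K27me3 peak had a median width of 13492 bp, and 118 of them (58.4%) lay in H3K27me3 peaks of at least 10 kb, against 122 of 1389 (8.78%) with H3K27ac. The median H3K27me3 fold was 4.03 with H3K27ac and 4.04 without. An overlap of 1 bp was enough to count, and H3K27me3 lay at the DLX summit in 75.8% and 89.6% of these groups. Both marks at 1 place may come from different cells, chromosomes or neighbouring nucleosomes, which cannot be told apart in these bulk data, and carry-over of signal between antibodies was not tested. Regions seen earlier showed the same split, with median widths of 1721 and 20086 bp.

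The stronger the e16.5 DLX peak of a member, the fewer marks its e13.5 chromatin carried. From the weakest to the strongest quartile, H3K27ac went from 51.1% (49.2 to 53.0%) through 31.8% and 18.4% to 9.36% (6.31 to 13.2%). H3K4me3 went from 63.0% to 11.4%, H3K27me3 from 36.1% to 3.34% and H3K4me1 from 74.5% to 55.5% (49.7 to 61.2%). Members without any of the 4 marks went from 17.3% to 41.5%. At regions seen earlier, H3K27ac, H3K4me3 and H3K27me3 also fell with strength, from 83.0% to 42.5%, from 89.7% to 57.4% and from 71.4% to 19.9%. H3K4me1 took the opposite course there, from 78.9% in the weakest quartile to 90.1% in the strongest. At regions seen earlier and members, H3K4me1 thus stood at 78.9% and 74.5% in the weakest quartile and 90.1% and 55.5% in the strongest. The strongest quartile ran from a −log10 q of 30.7 to 532, with 299 members beside 4989 regions seen earlier. Within a quartile the 2 kinds of region were not matched in strength. The highest DLX fold of any member was below the 64.7 reached at regions seen earlier. The part of peak strength in the gap between them was not tested.

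**Figure D3:**
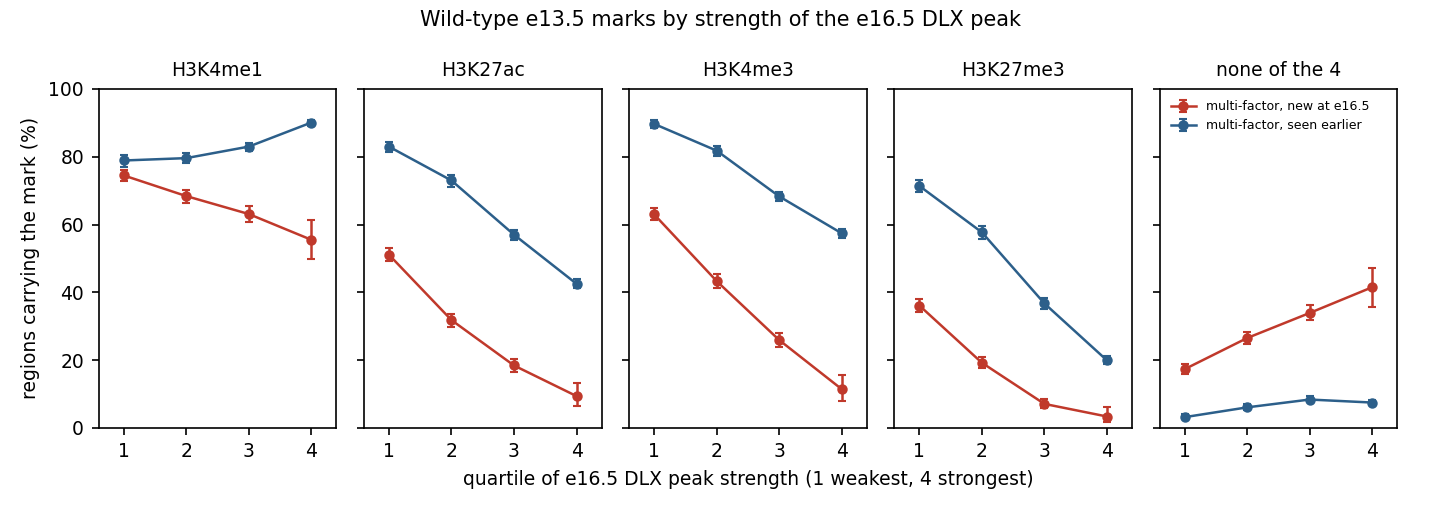
Share of regions (%) that carry each wild-type e13.5 mark, by quartile of e16.5 DLX peak strength (highest −log10 q; quartile 1 is weakest), for members and multi-factor regions seen earlier. Points are shares with 95% exact binomial intervals; the H3K4me1 lines part from 74.5% and 78.9% in quartile 1 to 55.5% and 90.1% in quartile 4.

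Distance to earlier DLX peaks went with the marks as well. Of the 554 members within 1 kb of an earlier peak, 86.1% had H3K4me1, 81.6% H3K4me3 and 72.6% H3K27ac, and 3.07% had no mark. Of the 2900 members at 10 to 50 kb, the shares were 68.8%, 43.5% and 32.1%, and 25.9% had no mark. Of the 322 members at 200 kb or more, 44.7% (39.2 to 50.3%) had H3K4me1, 28.9% H3K4me3 and 17.1% H3K27ac, while 48.8% (43.2 to 54.4%) had no mark. H3K27me3 went from 45.7% within 1 kb to 9.94% at 200 kb or more. Members within 1 kb can share a broad peak with the earlier site, since the median H3K4me1 peak at a member was 3371 bp wide.

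**Figure D4:**
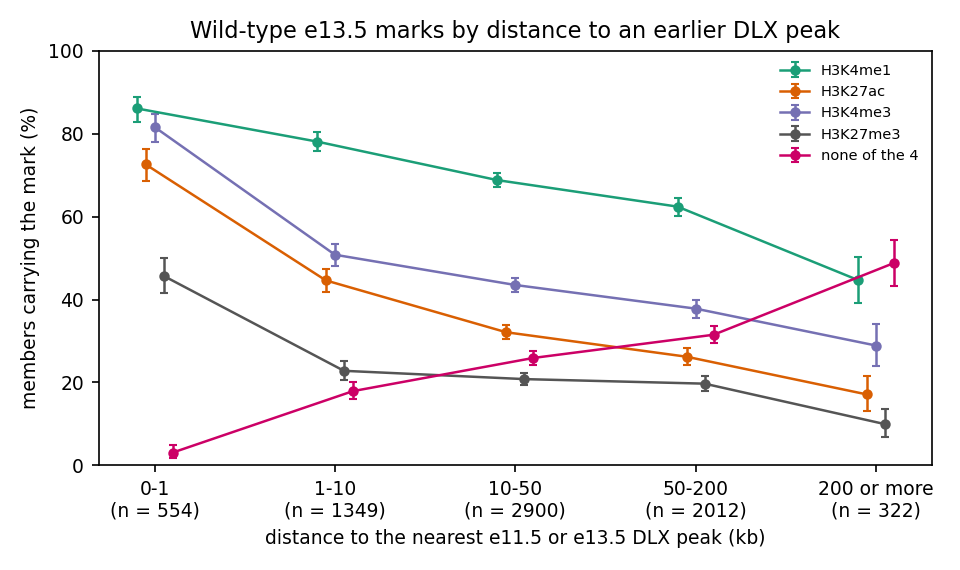
Share of members (%) that carry each wild-type e13.5 mark, by distance (kb) to the nearest e11.5 or e13.5 DLX peak. Points are shares with 95% exact binomial intervals, and the number of members stands under each distance; from the nearest to the farthest members, the share without a mark goes from 3.07% to 48.8%.

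The factors present made little difference to H3K4me1, which ranged from 67.2% at members with DLX1 and DLX5 to 70.6% at members with DLX1 and DLX2, with overlapping intervals. Members with DLX1 and DLX5 but no DLX2 peak had more H3K27ac and H3K27me3 than the other combinations. Of these 580, 49.0% (44.8 to 53.1%) had H3K27ac, 53.4% H3K4me3 and 35.9% (32.0 to 39.9%) H3K27me3. The other 3 combinations had between 32.0% and 37.2% for H3K27ac and between 20.1% and 22.4% for H3K27me3. For H3K4me3 they had between 44.2% and 48.8%, and the interval at DLX1 and DLX2 members (44.8 to 52.7%) overlapped that at DLX1 and DLX5 members (49.3 to 57.6%). The DLX1 and DLX5 members also had the lowest median highest fold of the 4 combinations, 4.41 against 5.83 for members with all 3 factors, and the part of peak strength in this was not tested.

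The 5 strongest members with all 3 factors, ranked by the weakest of their 3 −log10 q values, carried H3K4me1 or no mark at e13.5. At chr13:57997473-57997799 the e16.5 folds were 11.6 for DLX1, 14.1 for DLX2 and 11.9 for DLX5, and none of the 4 marks was called in either genotype. The same held for chr4:131153882-131154249, with 11.6, 11.1 and 15.6. The third unmarked region, chr2:40837977-40838899, had the highest single fold among the members, 20 for DLX5, beside 11.6 for DLX1 and 9.54 for DLX2. These 3 regions lay 41.4, 17.3 and 71.2 kb from the nearest earlier DLX peak.

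The other 2 of the 5 had H3K4me1 and no other mark. At chr4:5934255-5934652 (DLX1 11.1, DLX2 12.7 and DLX5 10.8-fold) the H3K4me1 peak stood at 3.05-fold in wild type and 2.70-fold in knockout. At chr8:60700768-60701274 (10.4, 15.2 and 9.92-fold) it stood at 2.70-fold in wild type and no knockout peak was called, though the region is in none of the authors' lists of differing H3K4me1. Both therefore carried a mark seen at enhancers, at a level below the member median of 3.64-fold.

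Members with more marks ranked below these 5 in DLX signal. The highest ranked 3-factor member with H3K4me1 and H3K27ac but no H3K27me3 was chr9:113416888-113417511 (DLX1 8.85, DLX2 7.60 and DLX5 11.2-fold), where wild-type H3K4me1 stood at 4.67-fold, H3K27ac at 2.80 and H3K4me3 at 4.79. The next was chr12:29117277-29117671, with H3K4me1 at 3.88-fold, H3K27ac at 3.02 and H3K4me3 at 7.09. Knockout values at these places were each lower, with 4.55, 2.62 and 4.54-fold at the first and 3.59, 2.79 and 5.90 at the second. Among members with H3K27me3 and no H3K4me3, chr2:138728855-138729402 ranked highest, with H3K27me3 alone at 3.15-fold in wild type and 3.20 in knockout.

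In Dlx1/2 knockout tissue at e13.5, the share of members with each mark was near that in wild type. H3K4me1 was called at 4764 members (66.8%, 65.6 to 67.8%), H3K27ac at 2468 (34.6%), H3K4me3 at 3120 (43.7%) and H3K27me3 at 1687 (23.6%). The H3K4me1 interval lay just below that in wild type. None of the 4 marks was found at 28.4% (27.3 to 29.4%) in knockout, against 25.2% (24.2 to 26.3%) in wild type. Over all merged regions that share likewise rose, from 18.7% to 21.3%. Of the members that carried a mark in wild type, 90% also carried H3K4me1 in knockout, 89.8% H3K27ac, 91.8% H3K4me3 and 93.9% H3K27me3. Over all merged regions these shares were 92.7%, 90.9%, 92.3% and 94.6%, each slightly higher. Where a mark was called in both genotypes, the median log2 ratio of the knockout to the wild-type peak fold was 0.01 for H3K4me1, −0.07 for H3K27ac, 0.11 for H3K4me3 and −0.10 for H3K27me3. Over all merged e16.5 regions the same medians were 0.01, −0.07, 0.10 and −0.09, so these shifts were not particular to the members. Median folds of the whole peak lists (−log10 q of at least 2), at DLX regions or not, moved the same way. From wild type to knockout, H3K27ac went from 3.45 to 3.34, H3K4me3 from 6.27 to 6.87 and H3K27me3 from 3.84 to 3.68. H3K4me1 stood at 3.37 in both.

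The authors' lists of regions that differ between the genotypes held few members. A member was counted when it overlapped a listed region, and the share of all 42503 merged regions counted in the same way is given as background. For H3K4me1, 206 members (2.89%, 2.51 to 3.30%) were in the list higher in wild type, against a background of 2.69%, and 10 (0.140%) in the list higher in knockout, against 0.144%. For H3K27ac, 15 members (0.210%, 0.118 to 0.346%) were in the wild-type list, against 0.701%, and 4 (0.0560%) in the knockout list, against 0.205%. The member share for H3K4me1 was thus near the background, and that for H3K27ac lay below it. New regions with 1 factor were in the H3K4me1 list higher in wild type at 1.62% (1.42 to 1.83%), below the members' interval. For H3K27ac higher in wild type they stood at 0.293% (0.214 to 0.392%), which overlapped it.

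For H3K4me3, 16 members (0.224%) were in the list higher in wild type, against a background of 0.574%, and 71 (0.995%, 0.778 to 1.25%) in the list higher in knockout, against 1.35%. For H3K27me3, 16 members (0.224%) were higher in wild type, against 0.339%, and 6 (0.0841%) higher in knockout, against 0.184%. In all, 332 members (4.65%) were in at least 1 of the 8 lists, against a background of 5.50%, and 9 (0.126%) in at least 2, against 0.499%. Of regions seen earlier, 8.25% were in at least 1. Regions seen earlier were in the H3K27ac list higher in wild type at 1.44% (1.25 to 1.65%) and in that of H3K4me1 at 3.96% (3.64 to 4.30%), both above the members' intervals. H3K4me1 higher in wild type was also counted only over regions in any of the authors' 3 H3K4me1 lists (higher in wild type, higher in knockout or common). These shares were close for members and regions seen earlier, 5.36% of 3845 and 5.51% of 10028. They were 4.35% of 26276 among all merged regions and 3.01% of 8250 among new regions with 1 factor.

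**Figure D5:**
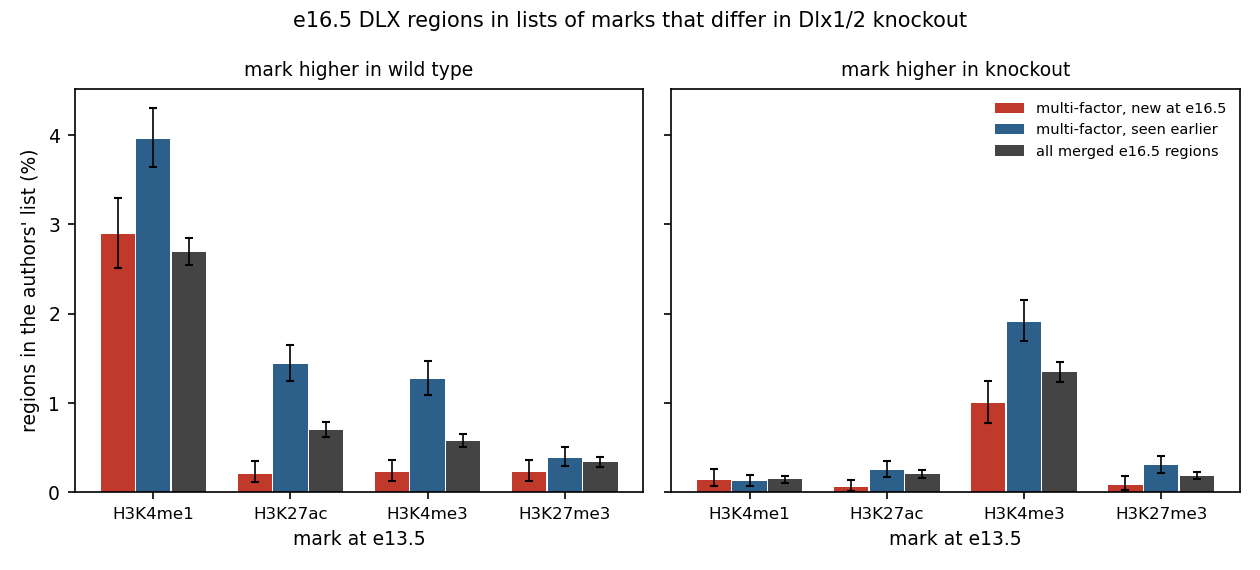
Share of regions (%) that overlap the authors' lists of e13.5 regions with a mark higher in wild type (left) or higher in Dlx1/2 knockout (right), for members, multi-factor regions seen earlier and all 42503 merged regions. Bars are shares with 95% exact binomial intervals; the highest member share is H3K4me1 higher in wild type, 2.89%, beside 2.69% of all regions.

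H3K4me1 higher in wild type was the most frequent genotype difference, and the 206 members in that list had fewer of the other marks than the 6931 members outside it. Of the 206, 89.3% carried H3K4me1 in wild type, but only 10.7% H3K27ac, 9.22% H3K4me3 and 0.485% H3K27me3, against 36.0%, 46.6% and 22.9% of the other members. All merged regions in the list had a like pattern, with H3K4me1 at 92.7%, H3K27ac at 14.4%, H3K4me3 at 15.1% and H3K27me3 at 8.32% of 1142. In knockout, 72 of the 206 kept an H3K4me1 peak at a −log10 q of at least 2, and 53 had none at any q. Over the 153 with a peak of any q in both genotypes, the median fold was 3.42 in wild type and 2.41 in knockout; since the list was made from these libraries, this is a description. All 3 factors were present at 45.6% of the 206 and at 32.5% of the others.

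Members with strong DLX peaks were in this list more often. The share went from 1.36% (0.965 to 1.86%) in the weakest strength quartile through 2.57% and 5.09% to 7.36% (4.67 to 10.9%) in the strongest, though those are the members with least H3K4me1. At regions seen earlier it went from 0.426% to 8.22%. Of members within 1 kb of an earlier peak 0.903% were in the list, and at 1 to 10, 10 to 50 and 50 to 200 kb the shares were 3.26%, 3.03% and 3.23%. At 200 kb or more, 4 of 322 (1.24%, 0.339 to 3.15%) were listed. The 3 members highest in the list, singled out after their values were seen, were chr17:56941508-56941836, chr8:88734913-88735215 and chr11:29349671-29350114. Their wild-type H3K4me1 peaks stood at 3.50, 2.85 and 2.58-fold, and they lay 28.4, 120.2 and 0.456 kb from an earlier DLX peak. None had a knockout H3K4me1 peak or another mark at a −log10 q of at least 2.

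The members with the highest scores in the H3K27ac list higher in wild type were of mixed kinds. At chr6:6830499-6830929, first among the members in that list, H3K27ac stood at 6.03-fold in wild type. No knockout H3K27ac peak had a −log10 q of at least 2. H3K4me3 stood at 12.5-fold in wild type and 6.76 in knockout, and H3K27me3 at 10.9 and 14.9-fold. The region lay 64 bp from an earlier DLX peak and had modest e16.5 folds of 3.36 for DLX2 and 2.94 for DLX5. At chr2:158436166-158436815, 1.44 kb from an earlier peak, H3K27ac stood at 4.53 and 2.52-fold and H3K4me3 at 13.9 and 7.64-fold, beside H3K27me3 at 8.30 and 8.82. Both were also in the H3K4me3 list higher in wild type and in the H3K4me1 list higher in knockout. The third, chr9:72344512-72345297, had H3K4me1 at 3.03 and 3.06-fold and H3K27ac at 2.94-fold in wild type only, and carried all 3 factors (3.82, 9.37 and 9.73-fold). It was also in the H3K4me1 list higher in wild type, though its H3K4me1 broad peaks differed little between the genotypes.

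In the other direction, chr13:95474180-95474457 was first among the members in the H3K27ac list higher in knockout. Its knockout H3K27ac peak stood at 3.77-fold, and none was called in wild type. H3K27me3 there stood at 6.78-fold in wild type and 5.43 in knockout. At chr13:79076886-79077873, which lay 294 kb from any earlier DLX peak, H3K27ac stood at 2.70-fold in wild type and 3.14 in knockout. The third, chr1:179374544-179374949, had H3K27ac at 5.16-fold in wild type and 4.34 in knockout, so its broad peaks and the list pointed opposite ways, and its H3K27me3 peak of 3.08-fold was called in wild type only.

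Members were spread over the genome. Joined at distances of up to 10 kb, 6425 of 7137 (90%) stood alone, and the largest group held 5, at chr12:50473141-50490592, of which 5 had H3K27ac and 4 H3K27me3. Joined at up to 50 kb, the largest group held 9, at chr13:23618133-23690190, of which 8 had H3K4me3 and 6 had all 3 factors. Chromosome X held 74 members, and there H3K4me1 was found at 35.1% (24.4 to 47.1%) against 69.4% on autosomes, while H3K27ac stood at 51.4% (39.4 to 63.1%) and 35.1%. H3K4me1 peaks cover 2.02% of X and 11.3% of the autosomes, and H3K27ac peaks 0.919% and 4.51%. At the 136 regions seen earlier on X, H3K4me1 was likewise lower than on autosomes (59.6% and 84.4%), but H3K27ac went the other way (46.3% and 59.4%).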

How the data were processed

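Reads were trimmed with Trim Galore, aligned to mm9 with BWA 0.7.16a and peaks called with MACS2 (tools and build per the submitters' processing notes). Each peak in the lists deposited by the authors has a fold enrichment (a ratio to input) and its p and q as −log10 values. The deposited histone lists reach −log10 q values near 0, so broad peaks of at least 2 were used. For each mark the authors deposited lists of regions comparing the genotypes, with a log10 likelihood ratio as score. These name condition 1 and 2; condition 1 was read as wild type, since 80.8% to 97.6% of its regions had the stronger wild-type peak, against 8.87% to 22.4% for condition 2. The RNA table was deposited by the authors as unnormalized counts of each gene (STAR 2.4.2a, per the submitters' processing notes). The counting tool, its annotation and its strand setting were not given in the sources used here. Columns of the authors' own comparison (log2 fold change, likelihood ratio score, p-value) were not used.

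Intervals were merged and overlapped (at least 1 bp) with Python 3.11.15, numpy 2.4.6 and pandas 2.3.3, with exact intervals from scipy 1.17.1; the code was tested on simulated intervals with known overlaps. A region's fold for a mark is that of its strongest overlapping peak with a −log10 q of at least 2, unless any q is stated. Where no peak is said to be called at a region, a weaker peak may still be in the deposited lists. CPM are counts scaled to each library's total. The members, lists and rules were chosen with earlier results of these data known. Regions named are the 5 strongest 3-factor members, the 2 strongest of each mark class, the 3 leading members of each H3K27ac list, and the 3 nearest to either side of the overlap rule; 3 from the H3K4me1 list were added after their values were seen. Not every region that the rule names is described. Inputs were not used, and unplaced contigs were left out. Alternatives changed the DLX and histone thresholds, the earlier lists, the distance and the overlap.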

Additional observations from a re-analysis of the deposited data

How the results depend on the processing

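No paired analysis was possible because each ChIP condition has 1 library and no result comes from a test. The marks kept their order by frequency (H3K4me1, H3K4me3, H3K27ac, H3K27me3) under each alternative except with all deposited broad peaks, where H3K27ac passed H3K4me3. With e16.5 DLX peaks of −log10 q of at least 5, 4510 members remained, with H3K4me1 at 66.1%, H3K27ac 28.1%, H3K4me3 38.2%, H3K27me3 16.1% and no mark 29.1%; in the authors' lists, H3K4me1 higher in wild type stood at 3.88%, H3K4me1 higher in knockout at 0.0443% and H3K27ac higher in knockout at 0%. Against the e13.5 lists only, there were 9252 members, with 71.1%, 48.3%, 57.1%, 35.9% and 19.7% in the same order, H3K4me1 higher in wild type at 2.25% and H3K4me3 higher in knockout at 1.48%. With no earlier peak within 1 kb, the 6583 members had 67.6%, 32.1%, 42.5%, 20.3% and 27.1%, and H3K4me3 higher in knockout at 0.775%. All deposited broad peaks gave 87.8%, 73.9%, 69.3%, 30.9% and 7.40%, and broad peaks of −log10 q of at least 5 gave 38.7%, 20.8%, 36.8%, 12.3% and 46.3%. With at least 50% of the region covered, H3K4me1 stood at 65.2%, H3K4me3 at 44.0%, H3K27me3 at 17.6% and no mark at 26.9%, H3K4me1 higher in wild type at 2.07%, H3K27ac higher in knockout at 0.0140% and H3K4me3 higher in knockout at 0.518%. The histone threshold moved the shares of H3K4me1, H3K27ac, H3K4me3 and no mark most, and the choice of earlier lists that of H3K27me3. The causes of these moves were not tested beyond what each alternative leaves out. ChIP depth is unknown here and limits what counts as new.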
